A study of Mus musculus with 39 samples.

Results

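S100 proteins are small calcium-binding proteins of the EF-hand family that work mostly as dimers. Inside a cell they bind cytoskeletal and membrane proteins, and several of them are also released and act on receptors of neighbouring cells. The pair S100a8 and S100a9 forms calprotectin, a major cytosolic protein of neutrophils and of classical, Ly6C-high monocytes that is released in inflammation and binds the receptors TLR4 and RAGE. The members described here are S100a4, S100a6, S100a8, S100a9, S100a10, S100a11 and S100a13, taken by symbol from the deposited per-library expression tables. They are 7 of the 11556 genes that the tables hold between them.

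The series holds 39 mouse RNA-seq libraries in 5 experiments, 29 of them from monocytes sorted on a FACS Aria and 10 from hepatocytes obtained by liver perfusion and centrifugation. Mice were 8 to 12 weeks old, and every group is of the C57BL/6 strain except 1, which is labelled CCR2-/-. The first marrow experiment set 4 libraries of monocytes from mice fasted for 4 h against 4 from fed mice, and the second set 4 libraries from mice fasted for 17 h against 3 from fed mice. Fasted mice had their food removed and bedding changed and kept water ad libitum, and fed mice had both food and water ad libitum. Another marrow experiment set 3 libraries of CCR2-/- monocytes against 3 of C57BL/6 monocytes, all from mice with food. CCR2 is the chemokine receptor by which classical monocytes leave the marrow. The fourth monocyte experiment used spinal cord from mice with EAE (experimental autoimmune encephalomyelitis, a model of multiple sclerosis). It set 4 libraries from mice fasted on and off in 24 h cycles for 4 weeks against 4 from mice with constant food. Hepatocytes came from mice fasted for 4 h (2 libraries) and fed (3), and from mice fasted for 12 h (3) and fed (2). No sorting gate is given, and nothing in the labels tells whether the libraries in a group come from separate animals, so p-values measure the spread between libraries, which may be technical. Each experiment has its own table of genes. All 7 members were analysed in spinal cord, 6 in both fasting experiments of marrow (all but S100a8), and 3 in the CCR2 experiment and in hepatocytes (S100a6, S100a10 and S100a13). The missing combinations were not analysed here.

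All 7 genes lie on chromosome 3 in mouse build GRCm38, in 2 neighbourhoods. S100a13 (90514233 to 90524581), S100a4 (90603770 to 90606045), S100a6 (90612894 to 90614414), S100a8 (90669071 to 90670034) and S100a9 (90692630 to 90695721) follow one another. S100a11 (93520496 to 93526288) and S100a10 (93555117 to 93564645) lie further along the chromosome. S100a13 overlaps the start of S100a1, another S100 gene, whose annotated span runs from 90511034 to 90514330, so reads of these overlapping genes may have been shared out between them and both are reported as uncertain. The members' messages are short. The longest annotated transcripts of S100a4 and S100a8 are 498 nt, those of S100a11 and S100a9 are 511 and 519 nt, and those of S100a10, S100a13 and S100a6 are 685, 715 and 783 nt.

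RefSeq promoters (GRCm38.p6, 250 bases before to 50 after the start) were matched for 6 of the 7 members. Those of the 4 members with the shortest messages are shown, because these 4 varied most between libraries. Each is written 5′ to 3′ on the gene's own strand. Capitals mark the TATA box letters TATAAA in S100a4, S100a8 and S100a9, and the AP-1 letters TGANTCA in S100a11. They come from chr3:90603520-90603819 on the plus strand (S100a4), chr3:90668821-90669120 on the plus strand (S100a8), chr3:90695672-90695971 on the minus strand (S100a9) and chr3:93520246-93520545 on the plus strand (S100a11).
S100a4: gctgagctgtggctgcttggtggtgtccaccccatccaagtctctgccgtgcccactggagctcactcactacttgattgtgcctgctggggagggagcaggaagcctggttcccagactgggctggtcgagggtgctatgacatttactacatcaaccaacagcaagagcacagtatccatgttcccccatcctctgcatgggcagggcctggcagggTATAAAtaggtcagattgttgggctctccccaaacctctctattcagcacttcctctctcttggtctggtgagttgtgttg
S100a8: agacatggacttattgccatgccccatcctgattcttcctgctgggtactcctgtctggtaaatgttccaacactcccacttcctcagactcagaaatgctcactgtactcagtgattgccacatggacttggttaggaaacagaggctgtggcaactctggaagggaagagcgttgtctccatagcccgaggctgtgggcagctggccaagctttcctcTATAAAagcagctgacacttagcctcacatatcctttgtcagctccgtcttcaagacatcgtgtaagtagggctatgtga
S100a9: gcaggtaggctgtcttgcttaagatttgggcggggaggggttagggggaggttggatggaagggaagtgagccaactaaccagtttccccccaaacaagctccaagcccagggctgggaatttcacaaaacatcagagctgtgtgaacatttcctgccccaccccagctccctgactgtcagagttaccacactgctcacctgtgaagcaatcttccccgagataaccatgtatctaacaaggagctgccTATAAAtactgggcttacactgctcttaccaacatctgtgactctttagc
S100a11: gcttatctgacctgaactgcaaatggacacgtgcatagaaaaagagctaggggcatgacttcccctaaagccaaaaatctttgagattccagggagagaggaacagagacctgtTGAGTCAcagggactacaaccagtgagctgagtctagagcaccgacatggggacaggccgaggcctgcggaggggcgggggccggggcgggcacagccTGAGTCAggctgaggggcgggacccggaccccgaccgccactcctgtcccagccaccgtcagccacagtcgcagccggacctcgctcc
TATAAA, searched on both strands like the other motifs, was found in 13.6% of the 32851 promoters of this length, and here at position -31 from the annotated start in S100a4, at -30 in S100a8 and at 1 in S100a9. TGANTCA was in 7.8% of all promoters and at -136 and -38 in S100a11. The C/EBP letters TTNCNNAA, held by 40.7% of all promoters, matched 1 time in S100a8 and 2 times in S100a9. The PU.1 letters GAGGAA, held by 28.3% of all promoters, matched 1 time in S100a4, 2 times in S100a8 and 1 time in S100a11. S100a6 and S100a13 held none of these 4 motifs in this window. These matches describe letters only, and no binding was measured in this series.

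Expression is given as TPM, a measure of transcript share that corrects for transcript length. Depth is unknown for every library. The labelled cell type was checked against defining markers. The 8 classical monocyte markers summed to between 15159 and 60168 TPM in the monocyte groups, and the 5 hepatocyte markers to between 49969 and 80806 TPM in hepatocytes. In the CCR2-/- libraries Ccr2 itself was at 64.7, 62.3 and 60.8 TPM, against 2449, 2622 and 2338 TPM in C57BL/6 libraries. Its log2 fold change was -5.28 ± 0.07 (SE; limma, adjusted p = 4.5e-09). In spinal cord, fed libraries 1 and 2 stood apart from the other 6. Over all genes they correlated at 0.988 with each other and at as little as 0.841 with the other fed libraries, and values without them are given beside the spinal cord results. In these 2 libraries Ccr2 was at 49.8 and 57.8 TPM, below all 3 CCR2-/- libraries, against 889 and 856 TPM in fed libraries 3 and 4. Ly6c2 was at 2069 and 2037 TPM in them, and the neutrophil gene Ngp at 52846 and 56754 TPM. By Ccr2 alone their label as monocytes is thus not borne out. Ccr2 was also below C57BL/6 marrow in the fasted spinal cord libraries, at 213, 787, 287 and 463 TPM. The summed classical monocyte markers of fed libraries 1 and 2, given below, lay on both sides of those of fed libraries 3 and 4. Libraries also differed in how short transcripts were represented. In the 4 h marrow experiment, 9 genes outside the family with a longest transcript of over 450 and up to 520 nt, among them the ribosomal protein gene Rplp1, had a median of 3.44, 62.3, 86.5 and 35.4 TPM in the 4 fasted libraries, against 3.41 TPM in 1 fed library and 0 in the other 3. In the 17 h experiment the median of 7 such genes was 31.9, 41.9, 52.9 and 16.1 TPM in fasted libraries and 280, 387 and 383 TPM in fed ones. These values move with several members below, and their part in the members' results was not tested. Each comparison was therefore also fitted after a loess trend of expression on transcript length was removed from each library, and after each library was centred within 6 length classes, both chosen after the data had been seen.

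Across monocyte groups the highest mean of every member except S100a8 and S100a9 was in the fed group of the 17 h marrow experiment. There S100a6 averaged 2886 ± 749 TPM, S100a10 1846 ± 110 TPM, S100a11 1426 ± 74.6 TPM, S100a4 1120 ± 177 TPM and S100a13 308 ± 72.5 TPM (SD, n = 3). For S100a4, S100a6, S100a10 and S100a13 the library range of that group did not overlap that of the next group in the order. For S100a11 it overlapped the 2 spinal cord groups, which averaged 1396 ± 262 TPM with fasting cycles and 1417 ± 941 TPM with constant food (SD, n = 4 each). S100a6, whose product is also called calcyclin, varied less elsewhere. Its other 7 group means lay between 428 and 838 TPM, and each overlapped its neighbour in the order. S100a13, which takes part in the release of the growth factor FGF1, had the lowest mean TPM of the members analysed in all 4 monocyte experiments. Its other 7 group means lay between 39.8 and 70.7 TPM, again each overlapping its neighbour.

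S100a9 spanned the widest range. It was listed at 0 in all 4 fed libraries of the 4 h marrow experiment and reached 31355 TPM in 1 fed spinal cord library. Its order was fed spinal cord (mean 15875 TPM), fasted spinal cord (2042 TPM), fed marrow at 17 h (63.5 TPM), fasted marrow at 17 h (13.9 TPM), fasted marrow at 4 h (3.55 TPM) and fed marrow at 4 h. The 2 spinal cord groups overlapped, as did the 2 fasted marrow groups, and fasted marrow at 4 h overlapped fed marrow at 4 h at 0. The other neighbours were apart. S100a8, analysed in spinal cord alone, averaged 4721 ± 1052 TPM with fasting cycles and 18417 ± 20015 TPM with constant food (SD, n = 4 each), and the ranges overlapped. These are levels across experiments, and experiment, tissue and disease cannot be told apart in them.

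**Figure D1:**
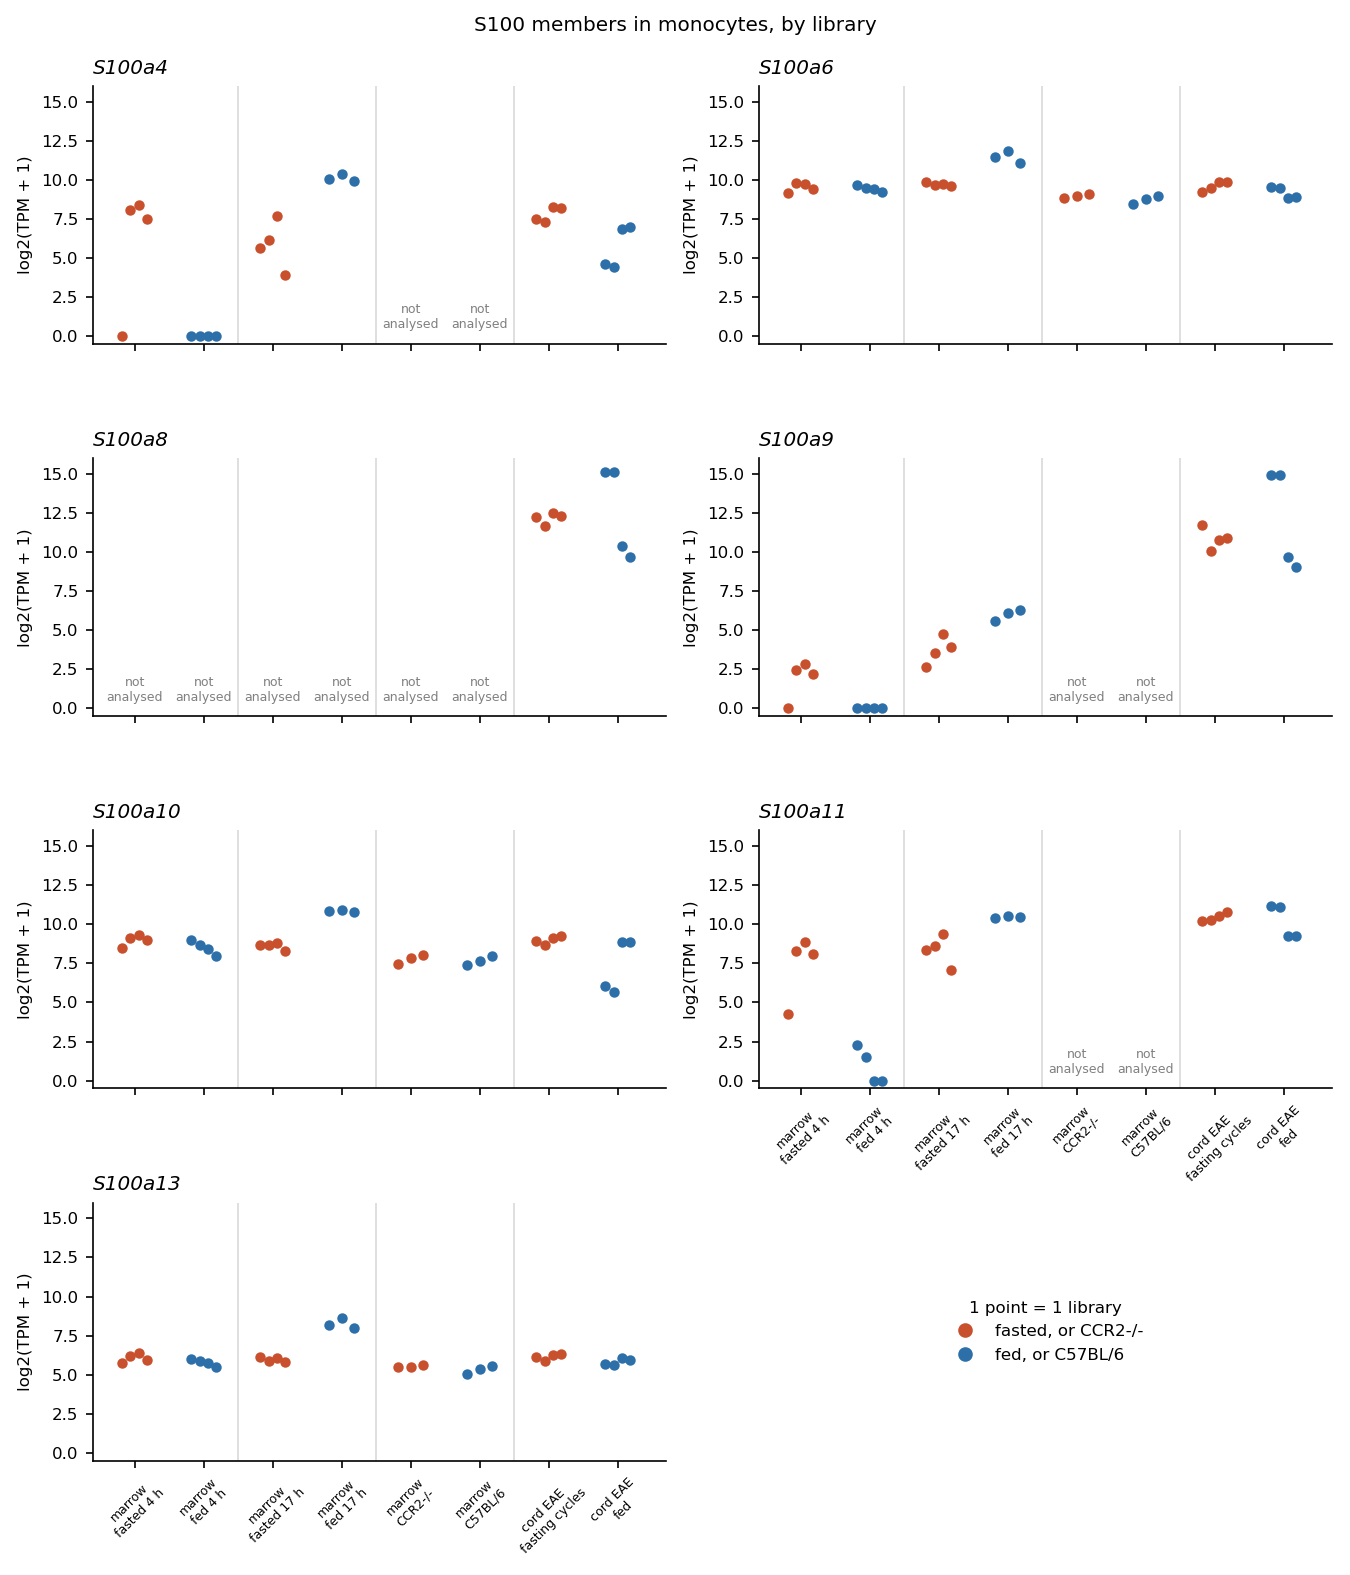
Levels of the 7 members in monocytes on a log2(TPM + 1) axis. Each point is 1 library, in red for fasted or CCR2-/- and in blue for fed or C57BL/6. In the 4 h marrow panels the 4 fed libraries of S100a4 and S100a9 lie at 0, and in spinal cord the 4 fed libraries of S100a8 run between 817 and 36237 TPM.

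The first comparison asked what 4 h without food changed in marrow monocytes. The 6 members analysed did not pass the test, although S100a4 and S100a11 were at or near 0 in fed libraries and above 180 TPM in 3 of 4 fasted ones. S100a4, a binding partner of non-muscle myosin, was listed at 0, 269, 336 and 182 TPM in the fasted libraries, against 0 in all 4 fed libraries. Fasted library 1 thus lay with the fed libraries and the other 3 above them. S100a11, a partner of annexin A1, was at 18.1, 308, 465 and 269 TPM in fasted libraries, against 3.91, 1.86, 0 and 0 TPM in fed ones. The groups did not overlap, and fasted library 1 was again the lowest of its group. The log2 fold change of S100a11 was 6.41 ± 1.17 (SE; limma, Benjamini-Hochberg adjusted p = 0.11). S100a9 was low throughout, at 0, 4.46, 6.10 and 3.66 TPM in fasted libraries, against 0 in all 4 fed libraries. The adjusted p was 0.25 for S100a4 and 0.17 for S100a9, with no fold given against a group at 0.

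The 3 longer members differed less between fasted and fed marrow at 4 h. S100a10, which joins annexin A2 at the plasma membrane, was at 357, 564, 643 and 515 TPM in fasted libraries, against 507, 404, 337 and 254 TPM in fed ones. The groups overlapped (log2 fold change 0.48 ± 0.23, SE; limma, adjusted p = 0.36). S100a6 averaged 744 ± 151 TPM with fasting and 699 ± 94.5 TPM in fed libraries (SD, n = 4 each; log2 fold change 0.08, limma, adjusted p = 0.81). S100a13 averaged 67.6 ± 13.2 TPM with fasting and 54.4 ± 7.53 TPM in fed libraries (SD, n = 4 each; log2 fold change 0.30, limma, adjusted p = 0.34). Thus 0 of 6 members passed by limma, where 40 of the 9428 genes tested, or 0.424%, did. At an unadjusted p under 0.05 (limma, 15.6% of all genes) were S100a11, S100a4 and S100a9. The last 2 are kept by the filter through the fasted group alone, so nothing is read from their p-values. Groups without overlap were 1 of 6 members and 8.81% of all genes.

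The results at 4 h rested on fasted library 1. Without it, S100a11 passed in limma (adjusted p = 0.0090), with 145 genes called in all. S100a4 and S100a9 passed as well, but both are kept by the filter through the fasted group alone and have no spread among fed libraries at 0, so nothing is read from their p-values. That library had 4 of the 9 short genes named above at 0, against none of the 9 in the other fasted libraries and 4, 6, 7 and 9 in the fed ones. The ends of the length scale differed in the same comparison. The median log2 fold change was 1.97 over the 37 genes with transcripts up to 600 nt and -0.09 over genes above 3000 nt. With length classes centred, S100a11 had a log2 fold change of 3.95 (limma, adjusted p = 0.18). With the length trend removed, S100a6 fell by 0.39 on the log2 scale (limma, adjusted p = 0.028), the opposite sign to the value as deposited. The 8 classical monocyte markers summed to between 21365 and 24212 TPM in fasted and between 16982 and 19838 TPM in fed libraries, and 2 of the 8 rose, Vcan (log2 fold change 1.44) and Chil3 (0.95). The 9 neutrophil markers analysed summed to between 2153 and 3227 TPM in fasted and between 2825 and 3556 TPM in fed libraries. In such bulk samples fewer cells of a type and less RNA per cell cannot be told apart.

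**Figure D2:**
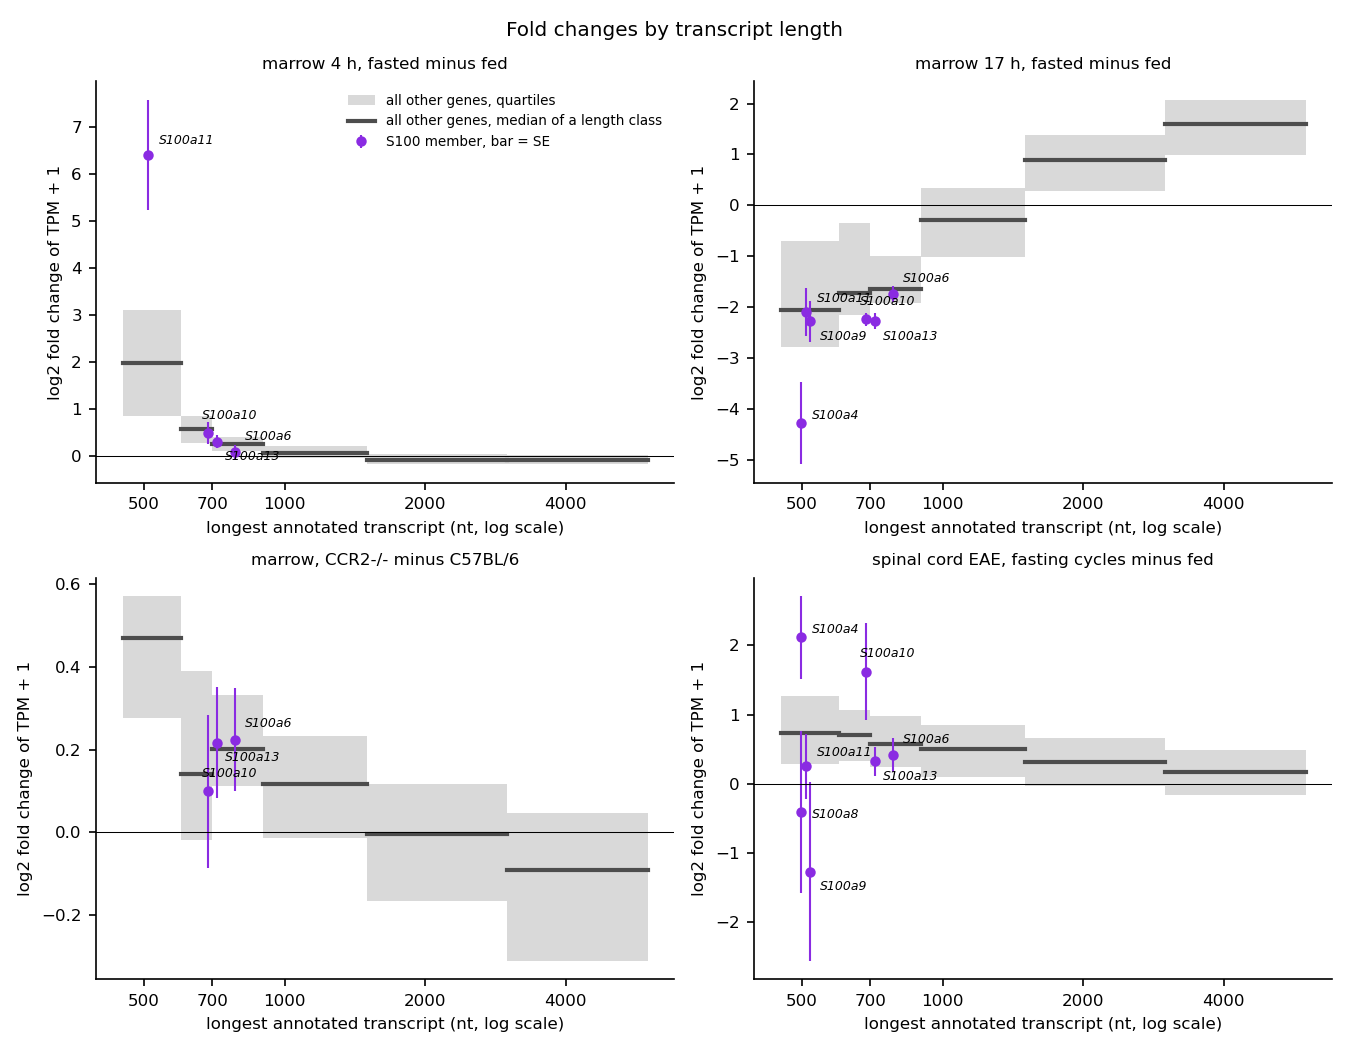
Log2 fold change of TPM + 1 against the length of the longest annotated transcript (nt, log axis), in 4 comparisons. Black lines and grey bands are the median and quartiles of all other genes in 6 length classes, and points are members with the SE. S100a4 and S100a9 are left out of the 4 h panel, where every fed library is at 0. At 17 h the class medians run between -2.05 for the shortest and 1.60 for the longest class.

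After 17 h without food, all 6 members analysed were lower in fasted than in fed marrow monocytes, and no fasted library reached the lowest fed one. S100a4 was at 49.9, 69.0, 202 and 13.9 TPM in fasted libraries, against 1063, 1319 and 977 TPM in fed ones. It had the largest log2 fold change of the 6, -4.28 ± 0.81 (SE; limma, adjusted p = 0.0019), and fasted libraries 3 and 4 were the furthest apart. S100a11 was at 331, 399, 680 and 134 TPM in fasted libraries, against 1381, 1512 and 1385 TPM in fed ones (log2 fold change -2.10 ± 0.46, SE; limma, adjusted p = 0.0026). S100a9 was at 5.17, 10.4, 26.1 and 14.05 TPM in fasted libraries, against 47.9, 66.5 and 76.0 TPM in fed ones. Its log2 fold change was -2.28 ± 0.41 (SE; limma, adjusted p = 3.8e-04).

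The longer members showed tighter groups. S100a10 was at 417, 399, 450 and 308 TPM in fasted libraries, against 1836, 1961 and 1742 TPM in fed ones (log2 fold change -2.24 ± 0.13, SE; limma, adjusted p = 1.9e-07). S100a6 was at 917, 820, 841 and 773 TPM in fasted libraries, against 2814, 3667 and 2175 TPM in fed ones (log2 fold change -1.75 ± 0.16, SE; limma, adjusted p = 2.3e-06). S100a13 was at 68.2, 56.9, 67.1 and 55.1 TPM in fasted libraries, against 286, 388 and 248 TPM in fed ones (log2 fold change -2.28 ± 0.15, SE; limma, adjusted p = 4.0e-07). S100a1, which is no member and overlaps S100a13, averaged 68.9 ± 11.8 TPM in fasted (SD, n = 4) and 231 ± 30.6 TPM in fed libraries (SD, n = 3), a log2 fold change of -1.74 that also passed.

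Cell markers differed in the same comparison. The 8 classical monocyte markers summed to between 46263 and 60168 TPM in fasted and between 17828 and 18764 TPM in fed libraries. Of these 8, 6 were higher and 1 lower, where 75.4% of all genes were higher and 14% lower. Ly6c2 was lower with fasting, at 5659, 5024, 5293 and 4926 TPM in fasted libraries, against 12471, 11205 and 12585 TPM in fed ones. The 4 macrophage markers analysed summed to between 4436 and 5725 TPM in fasted and between 1173 and 1223 TPM in fed libraries, and 2 NK cell markers, both lower, to between 35.3 and 48.0 TPM in fasted and between 136 and 221 TPM in fed libraries. The 7 neutrophil markers analysed summed to between 3076 and 4426 TPM in fasted and between 3953 and 6047 TPM in fed libraries. Markers in this sum went in opposite directions. Elane lay between 718 and 923 TPM in fasted and between 1960 and 3049 TPM in fed libraries. Lcn2 lay between 193 and 235 TPM in fasted and between 40.9 and 54.2 TPM in fed libraries, and Mpo was also higher in fasted ones. The part of these cell markers in the members' levels was not tested.

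The members' counts stood against a comparison in which most genes differed. At 17 h, 89.5% of the 9134 genes tested were called, with 14% of all genes lower and 75.4% higher, and 88.3% had groups without overlap. The median log2 fold change of all genes was 1.18, and with libraries centred on their median the members lay between -2.85 for S100a6 and -5.37 for S100a4. Of the genes called, 84.3% were higher as deposited, 52.9% with libraries centred on their median and 56.7% with quantile normalization. The direction of the members was that of short transcripts. The median log2 fold change was -2.05 over genes up to 600 nt and 1.60 over genes above 3000 nt. With the length trend removed, S100a4 fell by 1.93 on the log2 scale (limma, adjusted p = 0.022), and the other 5 lay between -0.21 and 0.24 with none passing. With length classes centred, S100a4 was at -1.03 and did not pass (limma, adjusted p = 0.17). Under that setting the other 5 turned to positive values that passed, S100a11 1.15, S100a9 0.97, S100a6 0.86, S100a10 0.81 and S100a13 0.34, the largest adjusted p being 0.0499 for S100a9. All 6 members were thus called lower in fasted monocytes at 17 h as deposited. With either length setting 5 of the 6 were not called lower, and S100a4 was called lower with 1 of the 2 settings. The part of transcript length in these results was not tested.

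**Figure D3:**
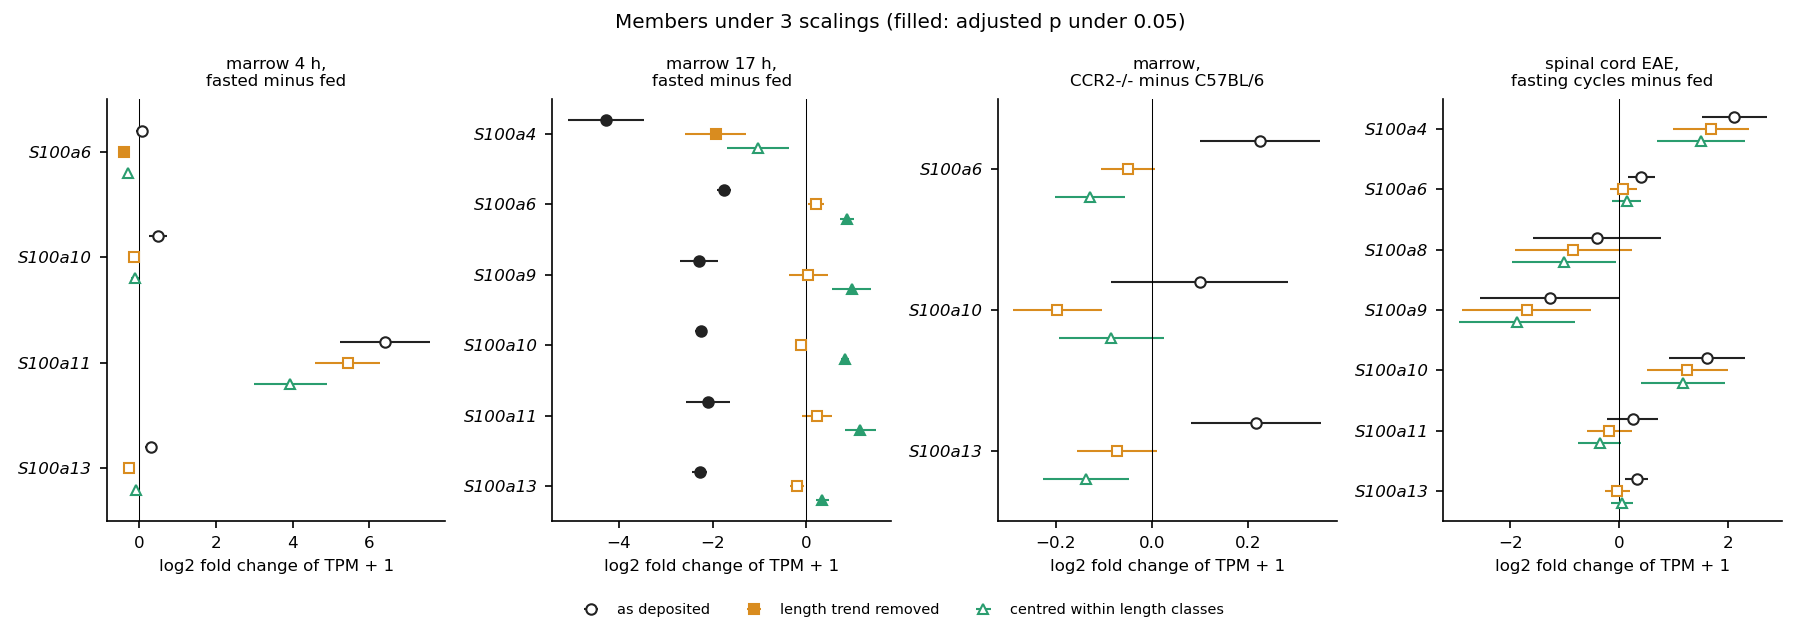
Log2 fold change of TPM + 1 of each member with its SE in 4 comparisons, as deposited (circles), with the length trend removed (squares) and centred within length classes (triangles). Filled symbols have an adjusted p under 0.05. At 17 h the circles lie between -4.28 and -1.75, and the triangles of all members but S100a4 lie between 0.34 and 1.15. S100a4 and S100a9 are left out of the 4 h panel, where every fed library is at 0.

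Set against each other in 1 fit, the fasting differences of the 2 marrow experiments were not the same. The difference at 17 h was lower than that at 4 h for S100a6, S100a10, S100a11 and S100a13, with adjusted p-values between 1.2e-08 for S100a13 and 1.0e-04 for S100a11 (limma). S100a4 and S100a9 passed in the same direction, with a 4 h difference that rests on fed libraries all at 0. The difference of log2 fold changes was -1.83 for S100a6, -2.72 for S100a10 and -2.57 for S100a13. Of the 8844 genes tested in this way, 88.0% were called, 12.9% of all lower. The time without food and the experiment cannot be told apart here, because each time has its own fed group and the fed groups themselves differed. Fed marrow of the 17 h experiment had higher levels than fed marrow of the 4 h experiment in all 3 members analysed in every monocyte experiment, with log2 fold changes of 2.02 for S100a6, 2.34 for S100a10 and 2.46 for S100a13 (limma over 8507 genes, 86.3% called, 10.9% higher). With length classes centred these turned to -1.27, -1.44 and -0.83 for the same 3 genes, and the differences between the times turned to 1.31, 1.13 and 0.57. The 4 h fasted and 17 h fasted groups were near each other as deposited for S100a6 and S100a13 and less so for the other members. At 4 h and 17 h, S100a4 averaged 197 and 83.7 TPM, S100a9 3.55 and 13.9 TPM, S100a10 520 and 394 TPM, and S100a11 265 and 386 TPM. No test was run between these fasted groups. S100a6 averaged 744 ± 151 TPM at 4 h and 838 ± 59.7 TPM at 17 h, and S100a13 averaged 67.6 ± 13.2 TPM at 4 h and 61.9 ± 6.78 TPM at 17 h (SD, n = 4 each), with ranges that overlapped.

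Loss of CCR2, which keeps classical monocytes in the marrow, was compared with C57BL/6 in fed mice. The 3 members analysed did not pass the test. S100a6 was at 449, 498 and 544 TPM in CCR2-/- libraries, against 354, 440 and 488 TPM in C57BL/6 libraries (log2 fold change 0.22 ± 0.12, SE; limma, adjusted p = 0.28). S100a10 was at 172, 229 and 263 TPM in CCR2-/- libraries, against 168, 196 and 256 TPM in C57BL/6 libraries (log2 fold change 0.10 ± 0.18, SE; limma, adjusted p = 0.77). S100a13 was at 44.8, 44.5 and 48.4 TPM in CCR2-/- libraries, against 32.1, 40.8 and 46.4 TPM in C57BL/6 libraries (log2 fold change 0.22 ± 0.14, SE; limma, adjusted p = 0.34). The groups overlapped for all 3, while 33.3% of all genes had groups without overlap. None of the 3 had an unadjusted p under 0.05 in limma, where 27.4% of all genes did. At an adjusted p under 0.05, 403 of 9210 genes, or 4.38%, were called. All 3 values turned negative, and still did not pass, with either length setting. C57BL/6 libraries of this experiment did not pass against fed 4 h marrow for any of the 3 either (limma, 2.03% of genes called). At an unadjusted p under 0.05 in that fit were 2 of the 3, with 14.1% of all genes. The log2 fold changes were -0.71 for S100a6, -0.84 for S100a10 and -0.45 for S100a13. With only these 2 groups in the fit, the same 3 values all passed, with 2048 genes called, 63.7% of them higher.

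In spinal cord monocytes of mice with EAE, fasting cycles were compared with constant food. The members with the highest levels were S100a8 and S100a9, and both varied more within the fed group than between the groups. S100a8 was at 4927, 3225, 5689 and 5041 TPM with fasting cycles, against 36237, 35255, 1360 and 817 TPM with constant food. S100a9 was at 3401, 1094, 1735 and 1938 TPM with fasting cycles, against 31355, 30783, 825 and 538 TPM with constant food. Fed libraries 1 and 2 lay above every fasted library in both genes, and fed libraries 3 and 4 lay below. S100a8 was the gene of rank 2 by TPM in fed libraries 1 and 2 and ranked 70 and 150 in fed libraries 3 and 4, and it ranked between 7 and 20 in the fasted libraries. Together the pair made up 0.842%, 0.436%, 0.749% and 0.704% of all TPM with fasting cycles, against 6.85%, 6.71%, 0.221% and 0.137% with constant food.

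**Figure D4:**
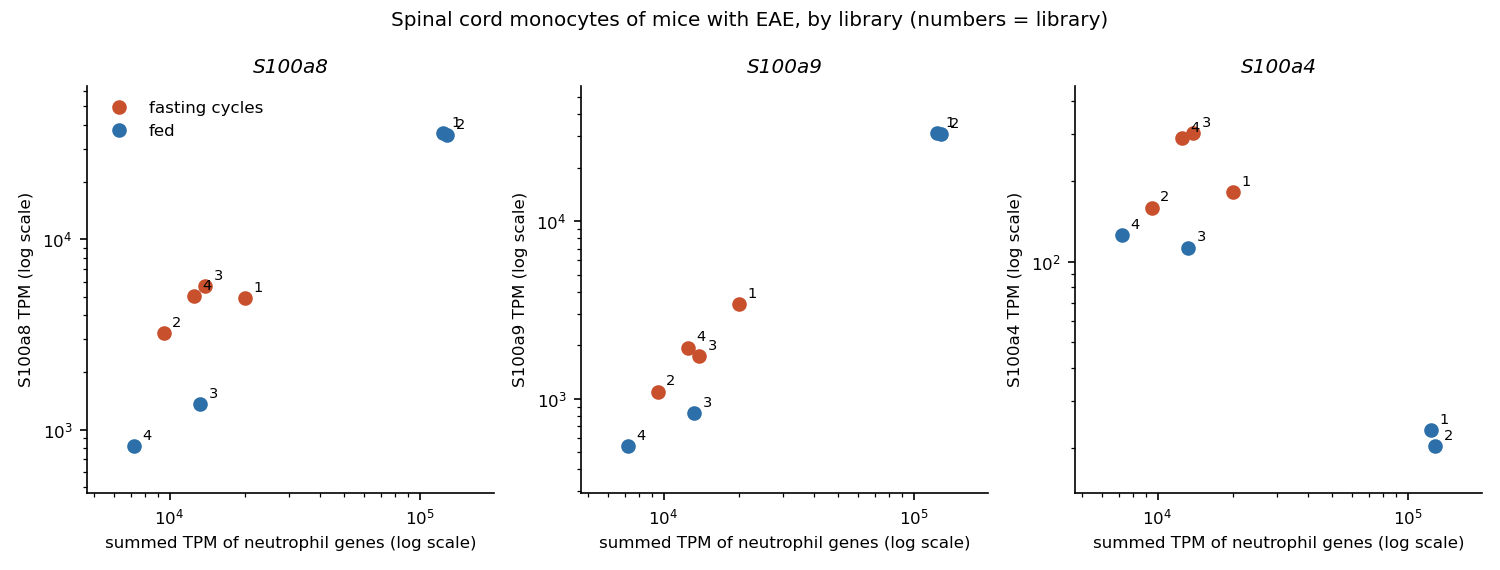
S100a8, S100a9 and S100a4 in spinal cord monocytes (TPM, log axis) against the summed TPM of 14 neutrophil marker genes (log axis). Each point is 1 library with its number, in red for fasting cycles and in blue for constant food. Fed libraries 1 and 2 stand at 124055 and 128753 TPM of neutrophil genes, with S100a8 at 36237 and 35255 TPM, apart from the other 6 libraries.

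Fed libraries 1 and 2 also stood apart in the sum of neutrophil markers, though not in every marker. The 14 markers of neutrophils and their precursors that were analysed summed to 19973, 9503, 13923 and 12547 TPM with fasting cycles, against 124055, 128753, 13295 and 7215 TPM with constant food. Ngp, a granule protein of neutrophil precursors, was at 52846 and 56754 TPM in fed libraries 1 and 2 and at 1388 and 637 TPM in fed libraries 3 and 4. Ltf, Camp, Lcn2, Retnlg and Mmp9 were likewise highest in fed libraries 1 and 2. Elane and Mpo, from the same list, did not set them apart. Elane was at 2734, 2421, 3715 and 1960 TPM in the fed libraries in order, and Mpo at 3079, 2912, 4356 and 2183 TPM. Both were highest in fasted library 1 or fed library 3. The 8 classical monocyte markers summed to between 38982 and 54862 TPM with fasting cycles, against 25370, 15159, 21248 and 20981 TPM with constant food. The part of these cell markers in the S100 results was not tested, and 0 of the 14 neutrophil markers passed between the groups.

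With all libraries, none of the 7 members passed (limma; 2 of 7 at an unadjusted p under 0.05, S100a4 and S100a10, with 21.5% of all genes), against 221 of 9079 genes or 2.43%. The log2 fold change was -0.41 ± 1.17 for S100a8 (SE; limma, adjusted p = 0.86) and -1.27 ± 1.29 for S100a9 (SE; limma, adjusted p = 0.58). Without fed libraries 1 and 2, a choice made after the data had been seen, S100a8 was higher with fasting cycles by 2.13 on the log2 scale (limma, adjusted p = 0.0063), the opposite sign, and S100a11 by 1.19 (limma, adjusted p = 0.013). S100a9 then had a log2 fold change of 1.50 that did not pass (limma, adjusted p = 0.067). With length classes centred as well, S100a8 alone passed, at 1.06 (limma, adjusted p = 0.026), and S100a11 was at 0.12. Those fits rest on 4 libraries against 2.

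S100a4 was the only member whose groups did not overlap in spinal cord, at 182, 159, 304 and 292 TPM with fasting cycles, against 23.3, 20.2, 113 and 126 TPM with constant food. Groups without overlap were 15.2% of all genes. Its log2 fold change was 2.12 ± 0.60 (SE; limma, adjusted p = 0.092). It passed when libraries were centred on their median (limma, adjusted p = 0.040), with quantile normalization (0.046) and with the replicate block. It also passed without fed library 3 (limma, adjusted p = 0.037) or fed library 4 (0.039). It did not pass with either length setting or without fed libraries 1 and 2, where it was at 0.92 (limma, adjusted p = 0.080). S100a10 was at 481, 416, 546 and 604 TPM with fasting cycles, against 65.5, 51.0, 470 and 460 TPM with constant food. Fed libraries 1 and 2 were here the low ones and fed libraries 3 and 4 lay within the fasted range (log2 fold change 1.62 ± 0.70, SE; limma, adjusted p = 0.22; 0.13 without fed libraries 1 and 2). S100a11 was at 1159, 1220, 1474 and 1732 TPM with fasting cycles, against 2289, 2174, 600 and 607 TPM with constant food, so that it sided with S100a8 and S100a9 (log2 fold change 0.25 ± 0.47, SE; limma, adjusted p = 0.78).

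The remaining 2 members did not pass in spinal cord. S100a6 was at 608, 720, 930 and 911 TPM with fasting cycles, against 745, 720, 456 and 487 TPM with constant food (log2 fold change 0.41 ± 0.25, SE; limma, adjusted p = 0.36), and without fed libraries 1 and 2 it was at 0.73 (limma, adjusted p = 0.067). S100a13 averaged 70.7 ± 9.42 TPM with fasting cycles and 56.4 ± 9.11 TPM with constant food (SD, n = 4 each; log2 fold change 0.32, limma, adjusted p = 0.39). The median log2 fold change of all genes was 0.26, and that of genes up to 600 nt was 0.73.

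Spinal cord and marrow could be compared for S100a6, S100a10 and S100a13 in 1 fit over 8507 genes, in which tissue, disease and experiment cannot be told apart. All 3 were lower in fed spinal cord than in the mean of the 3 fed C57BL/6 marrow groups, by limma, where 68.5% of genes were called and 47.7% were lower. The log2 fold changes were -0.68 for S100a6 (adjusted p = 5.3e-04), -1.64 for S100a10 (adjusted p = 5.7e-04) and -0.62 for S100a13 (adjusted p = 3.4e-04). Only S100a10 still passed against the 4 h fed marrow alone, and 1 of 3 passed with length classes centred. Without fed spinal cord libraries 1 and 2, S100a10 did not pass (log2 fold change -0.15), and S100a6 (-0.99) and S100a13 (-0.43) did. The genes called were then 60.4% higher, against 30.4% with all libraries. Between fasted spinal cord and the 2 fasted marrow groups 0 of 3 passed by limma, although 63.0% of genes did. None of the 3 had an unadjusted p under 0.05, where 66.2% of all genes did. The log2 fold changes were 0.00 for S100a6, 0.19 for S100a10 and 0.13 for S100a13. The fasting difference in spinal cord minus that in marrow at 4 h passed for 0 of 3, with 13.7% of genes called (limma). None of the 3 had an unadjusted p under 0.05, where 31% of all genes did. The values were 0.33 for S100a6, 1.14 for S100a10 and 0.02 for S100a13. S100a10 passed there without fed spinal cord library 3 (1.64, adjusted p = 0.028) or library 4 (1.63, adjusted p = 0.036). Without fed libraries 1 and 2 it turned to -0.35 and did not pass (limma, adjusted p = 0.44), and S100a6 was at 0.65 and S100a13 at -0.16, neither passing.

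In hepatocytes S100a10 was the highest of the 3 members analysed and S100a6 was close to 0. S100a6 was at 9.26 and 7.73 TPM after 4 h without food, against 5.49, 1.06 and 5.52 TPM in fed libraries. At 12 h it was at 1.93, 0.695 and 0.728 TPM in fasted libraries and listed at 0 in both fed libraries. S100a10 was at 92.5 and 91.0 TPM after 4 h without food, against 157, 88.1 and 145 TPM in fed libraries, and at 79.9, 77.6 and 66.0 TPM after 12 h, against 65.8 and 79.7 TPM in fed ones. S100a13 was at 45.8 and 19.4 TPM after 4 h without food, against 34.0, 36.3 and 20.9 TPM in fed libraries, and at 13.6, 15.9 and 20.3 TPM after 12 h, against 10.97 and 10.2 TPM in fed ones. The groups did not overlap for S100a6 at either time and for S100a13 at 12 h, which was also so for 53.7% of all genes at 4 h and 71.4% at 12 h. At 4 h 0 of 3 members passed by limma, with 37.2% of genes called. Of the 3, 1 had an unadjusted p under 0.05, as did 46.9% of all genes. At 12 h 0 of 3 passed, with 40.3% of genes called. None of the 3 then had an unadjusted p under 0.05, where 47.6% of all genes did. At 4 h the log2 fold change was 1.09 for S100a6 (limma, adjusted p = 0.10), -0.45 for S100a10 (0.13) and 0.01 for S100a13 (0.98). At 12 h it was 0.04 for S100a10 (limma, adjusted p = 0.92) and 0.59 for S100a13 (0.22), with no fold given for S100a6 against libraries at 0. S100a10 at 4 h passed without fed library 2 (log2 fold change -0.71, limma, adjusted p = 0.0062). All 8 macrophage markers were also measured in these libraries and summed to between 66335 and 77881 TPM in fasted and between 46505 and 48882 TPM in fed libraries at 4 h, and to between 36278 and 38577 TPM in fasted and between 30858 and 31111 TPM in fed libraries at 12 h. Of these 8 genes 5 rose at 4 h and 7 at 12 h, where 928 and 2099 of the 8966 genes tested were called higher. The list includes the apolipoprotein gene Apoe, so the sum is not taken as an amount of macrophage RNA. The part of these genes in the S100 levels was not tested. S100a16, an S100 gene that is no member, fell at 12 h, averaging 19.2 ± 2.89 TPM in fasted (SD, n = 3) and 29.3 ± 0.569 TPM in fed libraries (SD, n = 2; log2 fold change -0.60, limma, adjusted p = 0.015). It did not pass with either length setting or without either fed library.

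The ratio of S100a10 to S100a13 separated fed spinal cord libraries 1 and 2 from the other monocyte libraries. It lay between 5.05 and 8.58 in the libraries of the 2 marrow fasting experiments and between 3.85 and 5.50 in the CCR2 experiment. In spinal cord it was between 6.92 and 7.52 with fasting cycles, against 1.31, 1.07, 6.98 and 7.60 with constant food. The ratio of S100a11 to S100a10 lay between 0 and 1.51 over the libraries of the 2 fasting experiments, and that of S100a4 to S100a6 between 0 and 0.449. The ratio of S100a9 to S100a8, the pair that forms calprotectin, was 0.690, 0.339, 0.305 and 0.384 with fasting cycles, against 0.865, 0.873, 0.607 and 0.659 with constant food. Only fasted library 1 of the fasted libraries lay in the range of the fed ones. Across libraries S100a8 and S100a9 had a Pearson r of 0.97 on the log2 scale (8 spinal cord libraries), S100a6 and S100a13 of 0.94 (29 libraries) and S100a4 and S100a11 of 0.86 (23 libraries). These points share libraries, experiments and the representation of short transcripts, so the values are descriptions with no test.

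The genes whose pattern over monocyte libraries was most like that of each member were named by Pearson r of log2(TPM + 1), among genes with a mean of at least 10 TPM. For S100a4 they were Pin4 (0.96), Rps12-ps3 (0.96) and Rpl35a (0.95) over 23 libraries. For S100a11 they were Cd52 (0.94), Gm13835 (0.94) and Atp5l (0.93), and for S100a9 Cd63 (0.96), Rgcc (0.96) and Map1lc3a (0.92), again over 23 libraries. S100a6 was closest to Shfm1 (0.97), Fcer1g (0.97) and 1810037I17Rik (0.96), S100a10 to Phf5a (0.97), Gm20390 (0.97) and Rpl13 (0.97), and S100a13 to Dynlrb1 (0.99), 1810037I17Rik (0.98) and Ube2a (0.98), over 29 libraries. For S100a8 they were Tmem8, Mapk13 and Tbc1d10c (0.99 each) over the 8 spinal cord libraries. Of the genes nearest to S100a4, Pin4 (530 nt) and Rps12-ps3 (494 nt) share its length class and Rpl35a (2858 nt) does not. Atp5l, near S100a11, is annotated at 6310 nt. The longest annotated transcript need not be the one expressed, which limits both length settings and was not tested.

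Partners of the S100 proteins were followed through lists of annexins, receptors and signalling molecules for secreted S100 proteins, intracellular targets, the NADPH oxidase, transcription factors known to act on S100a8 and S100a9, and other EF-hand proteins. At 4 h none of the 56 partner genes tested passed by limma. The counts at an unadjusted p under 0.05 were 3 of 8 annexins, 5 of 11 receptors and signalling molecules, 1 of 8 intracellular targets, 0 of 6 oxidase genes, 4 of 9 transcription factors and 6 of 14 EF-hand genes. Together these were 19 of 56, or 33.9%, where 15.6% of all genes had such a p. At 17 h 41 of the 56 were higher in fasted monocytes and 7 lower, where 75.4% of all genes were higher. Of the 56, 22 lay above and 34 below the all-gene median of 1.18.

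Of the 8 annexins, which bind S100 dimers at membranes, 7 rose at 17 h and none fell, with a median log2 fold change of 0.54. Anxa11 (1.85) and Anxa6 (1.70) changed most, and Anxa2, the partner of S100a10, averaged 1474 ± 73.7 TPM in fasted (SD, n = 4) and 1243 ± 165 TPM in fed libraries (SD, n = 3; log2 fold change 0.25). Only 2 of the 8 lay above the all-gene median. Of 11 receptors and signalling molecules 9 rose and 1 fell (median 1.65), with 6 above and 5 below the all-gene median. Cd33, a sialic-acid-binding receptor reported to bind human S100A9, averaged 85.4 ± 10.98 TPM in fasted (SD, n = 4) and 7.28 ± 2.43 TPM in fed libraries (SD, n = 3; log2 fold change 3.41). Cd14 (1.89) and Alcam (1.97) rose as well. Ly96, the co-receptor of TLR4, fell (-2.05), and its longest transcript is 666 nt.

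Of 8 intracellular targets 5 rose and 1 fell at 17 h (median 1.12), with 4 above and 4 below the all-gene median. Myh9, the heavy chain of non-muscle myosin bound by S100a4, averaged 68.9 ± 20.3 TPM in fasted (SD, n = 4) and 9.56 ± 3.23 TPM in fed libraries (SD, n = 3; log2 fold change 2.74). Mdm2 (1.78), Ctsb (1.45) and Ahnak (1.39), a scaffold bound by S100a10 with annexin A2, rose too. Of the 6 NADPH oxidase genes, the enzyme to which calprotectin delivers arachidonic acid, 5 rose and 1 fell (median 0.84), with 2 above and 4 below the all-gene median. Cybb, its catalytic subunit, had a log2 fold change of 2.41, and Cyba, the membrane partner of Cybb, fell (-1.78), with a longest transcript of 744 nt. Of 9 transcription factors 7 rose and none fell (median 0.61), with 3 above and 6 below the all-gene median. Among them Hif1a (2.78), Stat3 (2.23) and Cebpa (1.83) lay above it and Atf3 (0.81) below it. Of 14 other EF-hand genes 8 rose and 4 fell (median 0.45), with 5 above and 9 below the all-gene median. Lcp1 (2.31), Capn2 (1.95) and Capn1 (1.94) were among those that rose.

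In CCR2-/- against C57BL/6 marrow 5 of the 56 partner genes passed, or 8.93%, against 4.38% of all genes, and in spinal cord 2 of 56, or 3.57%, against 2.43% of all genes. In CCR2-/- marrow Cd33 rose (52.8 ± 3.10 TPM in CCR2-/- and 35.1 ± 0.597 TPM in C57BL/6 libraries, SD, n = 3 each; log2 fold change 0.58, limma, adjusted p = 0.033). Myh9 (-0.95, adjusted p = 0.048), Cebpb (-0.49, adjusted p = 0.048), a factor that acts on S100a8 and S100a9, Capn1 (-0.63) and Capn2 (-0.48) fell by the same limma fit. In spinal cord Anxa3 averaged 79.6 ± 27.8 TPM with fasting cycles and 241 ± 75.5 TPM with constant food (SD, n = 4 each; log2 fold change -1.60, limma, adjusted p = 0.036). Irf7 averaged 31.3 ± 10.1 TPM with fasting cycles and 151 ± 67.5 TPM with constant food (SD, n = 4 each; log2 fold change -2.18, limma, adjusted p = 0.021). No other of the 56 partner genes tested in either experiment passed.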

How the data were processed

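Values are TPM per gene, 1 table per library, made by the authors with kallisto 0.44.0 on build GRCm38, per the submitters' processing notes. That the deposited unit is TPM was read from the values, whose sum per library lay between 981503 and 992121. Strand setting, transcript annotation and gene filter are not given in the sources used. Depth cannot be recovered from TPM. Libraries were grouped by their labels.

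From the deposited TPM, log2(TPM + 1) was computed, so fold changes understate those of low genes. Genes with a mean of at least 1 TPM were fitted with limma 3.58.1 in R 4.3.3 (mean-variance trend, robust empirical Bayes), with Benjamini-Hochberg adjustment over all genes tested and a threshold of 0.05. Each comparison was fitted on its own experiment (hepatocytes with both times together), and differences between experiments on their joint genes. The scripts were tested on simulated data. Transcript lengths are the longest per symbol in GENCODE vM21 (GRCm38), and positions and promoters are RefSeq's (GRCm38.p6). Lengths were matched for 97.1% of genes in the 4 h marrow table. Tables and figures used python 3.11.15, pandas 2.3.3 and matplotlib 3.10.9.

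Named are the 7 members, other S100 genes, up to 4 called genes per partner list and comparison with the largest absolute log2 fold changes, Ccr2, and the 3 genes most like each member. Anxa2, Vcan, Chil3, Ngp, Ltf, Camp, Lcn2, Retnlg, Mmp9, Elane, Mpo and Rplp1 were added after their values were seen. Members and lists were chosen with earlier results of these data known. Alternatives were another pseudocount, filters, normalization, empirical Bayes settings, a replicate block, leaving out each library, and the length settings.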

Additional observations from a re-analysis of the deposited data

Results flagged for a closer look

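The fasting difference in marrow monocytes differed between the 17 h and the 4 h experiment for all 6 members analysed, by the test of the difference itself (limma, interaction of fasting with experiment, Benjamini-Hochberg adjustment over 8844 genes). The adjusted p was 0.0012 for S100a4, 9.4e-07 for S100a6, 2.7e-04 for S100a9, 1.2e-07 for S100a10, 1.0e-04 for S100a11 and 1.2e-08 for S100a13. All 6 were in the lower direction, as were 12.9% of all genes tested, and 88.0% of genes were called, 85.3% of them higher (54.3% with libraries centred on their median). With length classes centred, 3 members passed as higher and 1 as lower, and with the length trend removed 1 passed as higher and 2 as lower. For S100a4 and S100a9 the 4 h difference rests on fed libraries all at 0, so nothing is read from their p-values. Each experiment had its own fed group, so time and experiment cannot be told apart.

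By Dixon's test at the 95% level, no library stood outside its group on the TPM scale in the 30 member and group combinations tested. On the log2(TPM + 1) scale, tried after the data had been seen, fasted library 1 of the 4 h marrow experiment lay below its group for S100a4 (0 TPM) and S100a11 (18.1 TPM), 2 of 30 combinations. Chance gives about 1 in 20. The test cannot show a split into 2 libraries against 2, such as that of fed spinal cord.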

How the results depend on the processing

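The members' fold changes (S100a1 and S100a16 not included) were counted as kept where they stayed on their side of the threshold. A change of sign was counted only where the value passed in either fit, so some values counted as kept changed sign without passing. Kept were 443 of 452 values with 1 library left out, 74 of 111 with a length setting, 361 of 379 with other settings and 36 of 37 with the replicate block. The cause was not tested where values changed. The tables hold no depth, so precision rests on the number of libraries alone. At 17 h in marrow, removing the length trend gave S100a6 0.21, S100a9 0.046, S100a11 0.24 and S100a1 0.39, with 1 member called, and centring within length classes gave S100a6 0.86, S100a9 0.97, S100a10 0.81, S100a11 1.15, S100a13 0.34 and S100a1 1.31. For the difference between 17 h and 4 h the same settings gave S100a6 0.72 and 1.31, S100a10 0.14 and 1.13, S100a13 0.18 and 0.57, S100a1 0.57 and 1.54, and S100a9 1.68 with classes centred, with 3 members called once the trend was removed. For fed marrow at 17 h against fed marrow at 4 h they gave S100a6 -0.48 and -1.27, S100a10 -0.37 and -1.44, S100a13 -0.18 and -0.83, and S100a1 -0.90 with classes centred, with 1 member called once the trend was removed. At 4 h S100a6 was at -0.39 without the trend, and 1 member was called both then and without robust empirical Bayes (S100a11, adjusted p = 0.016).

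In spinal cord 1 member passed with quantile normalization (783 genes called), median centring (687) and the replicate block (119), 2 members without fed libraries 1 and 2 (774 genes; S100a8 2.13) and 1 with classes centred as well (644 genes; S100a8 1.06). Genes called there were 138 with a mean of at least 10 TPM, 136 without the length trend and 128 with classes centred. Leaving out 1 library in turn, calls ranged between 0 and 1 members and 22 and 745 genes in spinal cord. In marrow at 4 h they ranged between 0 and 3 members and 14 and 145 genes. Those 3 include S100a4 and S100a9, at 0 in every fed library, so nothing is read from their calls. For CCR2-/- between 11 and 1060 genes were called, and 48 with no mean-variance trend. Leaving out 1 library also gave between 0 and 1 members in hepatocytes at 4 h. In hepatocytes at 4 h 1 member (S100a10) passed with classes centred, and genes called were 1689 with the block and 1744 with that time alone. At 12 h 1 member passed with a pseudocount of 0.1 (S100a6), with classes centred (S100a6) and with that time alone (S100a13). S100a6 was listed at 0 in both fed libraries at 12 h and at no more than 1.93 TPM in fasted ones. Nothing is therefore read from its passes.

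Fed spinal cord against fed marrow had 1 member called with classes centred, with fed libraries 1 and 2 left out as well, and with the 4 h marrow alone, where S100a13 was at 0.049. Fasted spinal cord against fasted marrow had 1 with quantile normalization, median centring (both S100a13), and either length setting (S100a6). The fasting difference in spinal cord against that at 4 h had 1 with fed libraries 1 and 2 left out and classes centred (S100a6), 140 genes called with only the groups compared, and between 0 and 1 members and 693 and 3163 genes with 1 library left out. For C57BL/6 of the CCR2 experiment against fed 4 h marrow, 1 member (S100a6) and 753 genes passed with quantile normalization, 3 members and 2048 genes with only those groups, 438 genes with median centring and 113 with classes centred. With 1 library left out it had between 0 and 1 members and 48 and 212 genes; S100a6 passed without fed 4 h library 4.

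Replicate numbers were not taken as pairs in the main fits. No experiment with 3 or more pairs had every correlation of deviations above 0.1 (between -0.34 and -0.04 in marrow at 4 h). This rule cannot exclude pairing, and in the CCR2 experiment the values were 0.32, -0.08 and 0.32. As a block, replicate numbers changed 1 member call, S100a4 in spinal cord (limma, adjusted p = 0.038). They gave 1423 genes called for CCR2-/-, against 403 without the block. No paired analysis was possible between experiments because replicate numbers lie within an experiment.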

Other observations

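Centring every library on its median changed member levels most in the fed libraries of the 17 h marrow experiment. Of 44 member and group means, 14 moved by more than 1 SD. In that group the mean of S100a4 became 2630 TPM, that of S100a6 6773 TPM, that of S100a10 4331 TPM and that of S100a11 3348 TPM, against 1120, 2886, 1846 and 1426 TPM as deposited.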
